A study of Homo sapiens with 23 samples.

Results

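Voltage-gated and leak ion channel genes were taken from the RNA-seq tables of thalamus organoids (ThOs) by their symbols, namely every symbol that begins with KCN, CACN or NALCN, or with HCN, CLCN or SCN followed by a digit. Of the 9497 genes listed in each table, 47 had such a symbol. They comprised 19 potassium, 6 sodium, 13 calcium and 5 chloride channel genes, 3 HCN genes and 1 noncoding transcript, KCNQ1OT1, which carries the name of a potassium channel gene but encodes no channel. RefSeq (GRCh38.p14) holds 148 protein-coding genes under the same rule, of which 46 were listed here: 19 of 96 potassium, 6 of 15 sodium, 13 of 26 calcium, 3 of 4 HCN and 5 of 7 chloride channel genes. The tables list only genes whose value was at least 11 in every library, so the members are the channel genes that were measurable throughout. NALCN and CACNA1I were not analysed here.

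Ion channels set the resting potential and the shape of the action potential of a neuron. Voltage-gated sodium channels carry the upstroke, voltage-gated potassium channels end it, and calcium channels convert it into calcium entry and transmitter release. Leak channels and inward rectifiers hold the membrane near rest, and HCN channels pass a mixed cation current that opens on hyperpolarisation. In relay neurons of the thalamus, HCN current and low-threshold T-type calcium current together support rhythmic burst firing. The chloride family includes exchangers of endosomes and lysosomes, which support the acidification of these compartments and do not shape the action potential directly.

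ThOs were grown from H1, a human embryonic stem cell line, and lysed for RNA as pools of 3 organoids. Libraries labelled WT came from unedited H1 cells, and libraries labelled KO from H1 cells edited by CRISPR/Cas9 at c-JUN, which encodes an AP-1 subunit and has the symbol JUN. Libraries titled as knockout plus c-Jun, called OE here, carried the same edited background with c-JUN expressed from a doxycycline-inducible plasmid according to the study's methods. Each genotype was sampled at day 25 and day 30 of culture with 2 libraries a group, which gives 6 groups and 12 libraries. The study asked what c-JUN does in the developing human thalamus, and the genotypes are compared here in their 3 possible pairs. These comparisons share libraries, so their results are not independent of each other. The study used more than a single knockout line, and which of them gave the sequenced ThOs was not given in the labels. Nothing in the labels says that the libraries of a group came from separate differentiations, so the p-values measure the spread between these libraries, which may be technical. The 11 chromatin samples of the series were not analysed here.

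Values are normalised expression scores, deposited as whole numbers between 11 and 9910 with a median of 106 in every library, and the read depth behind them is unknown. JUN ran from 128 to 162 in the 4 libraries labelled WT, from 196 to 353 in those labelled KO and from 202 to 362 in those labelled OE. It was therefore higher, and not lower, in the libraries labelled KO than in those labelled WT (exact two-sided permutation test, p = 0.0286, the smallest p that 4 against 4 allows), and OE and KO did not separate (exact two-sided permutation test, p = 0.886). These values count JUN transcript, edited or not, and do not measure c-JUN protein, which was not analysed here. Every direction below rests on the labels. The libraries labelled KO also agreed less with each other than those of the other groups. Of the 47 members, 14 differed at least 2-fold between the 2 libraries labelled KO at day 25 and 11 at day 30 (29.8% and 23.4%), against 1 to 7 members in the other 4 groups. For all 9497 genes, the shares were 17.4% and 21.5% in KO and 1.75% to 4.45% elsewhere. Neuronal markers were well represented, with 17 of 18 listed and sums over the list of 9766 to 14652 in all 12 libraries. Of 13 thalamus markers 8 were listed, TCF7L2 among them. GBX2, OLIG3, LHX2, FOXP2 and CALB2 were not analysed here. Of the other lists, 9 of 12 progenitor, 7 of 10 choroid plexus, 5 of 7 stress, 2 of 7 mesenchyme, 1 of 7 glia and 0 of 4 pluripotency markers were listed. In such bulk libraries, fewer cells of a type and less RNA per cell cannot be told apart.

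In the main fit, OE against KO was the only comparison with calls among channel genes. In some alternative fits given below, OE against WT had calls and OE against KO had none. Averaged over both days, 3 of the 47 members passed the threshold (adjusted p under 0.05 in limma and at least 2-fold), and all 3 fell in OE: KCND2 and KCND3, which encode the pore subunits Kv4.2 and Kv4.3 of the fast-inactivating A-type potassium current, and HCN2, a pore subunit of the hyperpolarisation-activated current. Over all genes 211 passed, or 2.22%. No member rose.

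KCND2 (ENSG00000184408, GRCh38 chromosome 7, 120273175 to 120750337) had values of 117 and 58 at day 25 and 102 and 156 at day 30 in the libraries labelled KO. In those labelled OE it had values of 40 and 42 at day 25 and 42 and 45 at day 30. The lowest KO library thus lay above the highest OE library. KCND2 fell from 108.25 ± 40.5 (SD, n = 4) in KO to 42.25 ± 2.06 (SD, n = 4) in OE, or by 1.25 on the log2 scale (SE 0.251, limma adjusted p = 0.029). In WT it lay between them, at 67.5 ± 7.55 (SD, n = 4).

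KCND3 (ENSG00000171385, GRCh38 chromosome 1, 111770662 to 111989668) had values of 122 and 142 at day 25 and 92 and 264 at day 30 in KO. Its values in OE were 55 and 50 at day 25 and 72 and 44 at day 30. The genotypes did not overlap, although KO day 30 replicate 2 stood far above the other KO libraries. KCND3 fell by 1.38 on the log2 scale (SE 0.328, limma adjusted p = 0.045). WT libraries spanned 55 to 128 and overlapped both. On the opposite strand KCND3 shares 4941 bases with DDX20, whose own log2 fold change for OE against KO was 0.25 (limma adjusted p = 0.67).

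HCN2 (ENSG00000099822, GRCh38 chromosome 19, 589881 to 617159) had values of 55 and 58 at day 25 and 38 and 76 at day 30 in KO. In OE the values were 17 and 28 at day 25 and 21 and 18 at day 30, all below the lowest KO library. HCN2 fell from 56.75 ± 15.6 (SD, n = 4) to 21 ± 4.97 (SD, n = 4), a log2 fold change of -1.38 (SE 0.29, limma adjusted p = 0.0336). WT lay near OE, at 29.75 ± 6.13 (SD, n = 4).

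These 3 calls were sensitive to the libraries included. The main fit gives each gene a single spread for all 6 groups, although the libraries labelled KO differed more from each other. The SEs and p-values of comparisons with KO may therefore be too small. None of them passed with the spread estimated only from the 8 libraries compared or with library weights, and none passed without OE day 25 replicate 1, OE day 25 replicate 2, KO day 30 replicate 2, OE day 30 replicate 1 or OE day 30 replicate 2. Without KO day 25 replicate 2, 1 member passed (KCND2), without KO day 25 replicate 1, 2 (HCN2 and KCND2), and without KO day 30 replicate 1, 8 (these 3 with CACNA1A, CACNA1E, KCNJ2, KCNQ3 and SCN9A). Over all genes 964 passed in the last of these fits (10.2%), in which 1 library stands for KO at day 30 and is assumed to vary like the other groups. The direction was the same in all of these fits.

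**Figure D1:**
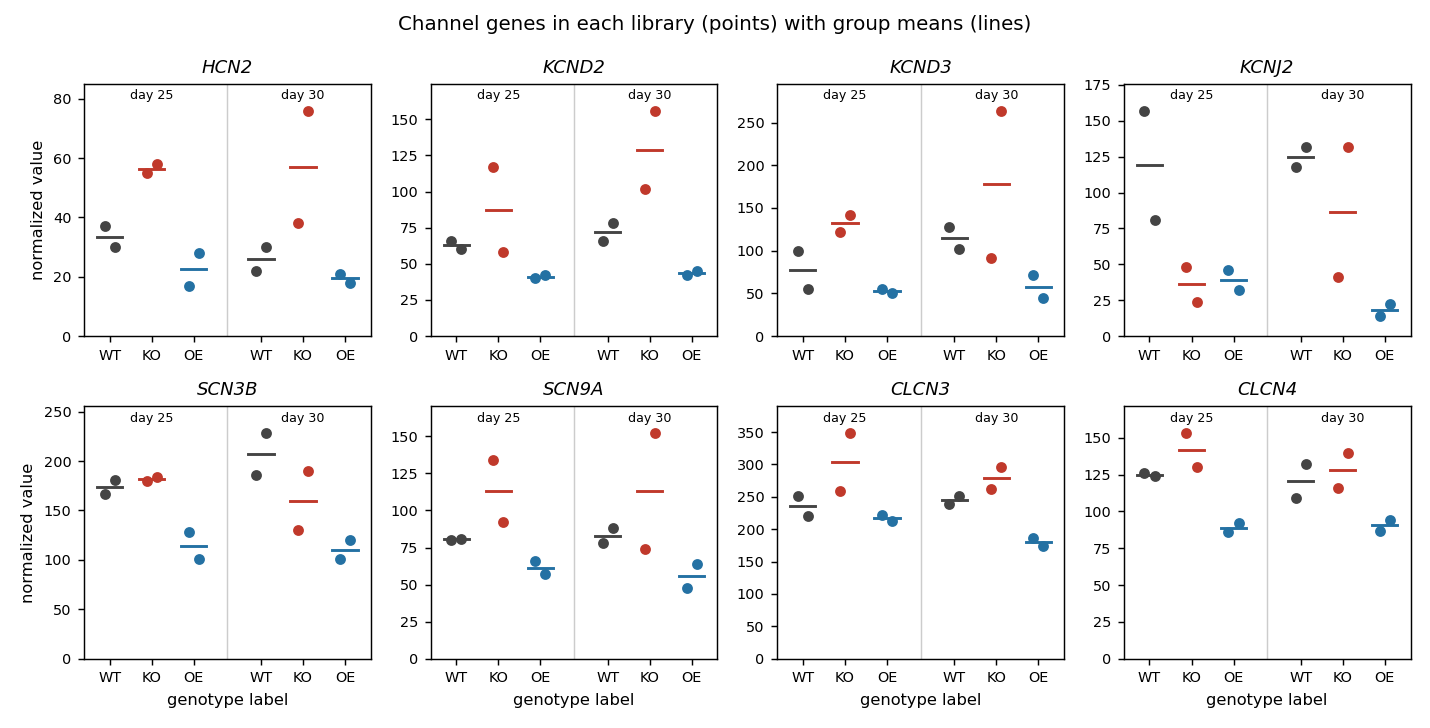
Normalised values (vertical axes, linear, no unit) of 8 channel genes in the 12 libraries, by genotype label and day, with points for libraries and lines for the mean of the 2 libraries of a group. For HCN2, KCND2 and KCND3, every OE library lies below every KO library, and KCNJ2 is lowest in OE at day 30 (14 and 22).

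Since c-JUN acts through AP-1, the 250 bases before the RefSeq start of each called gene (GRCh38.p14) were read and are shown 5′ to 3′ on the gene's strand. The AP-1-like letters TGANTCA, with any base at N, and the cyclic AMP response letters TGACGTCA were searched on either strand. Both were absent from all 3 windows, and no letters are therefore in capitals. The windows are chr7:120272925-120273174 on the plus strand for KCND2, chr1:111989669-111989918 on the minus strand for KCND3 and chr19:589631-589880 on the plus strand for HCN2.
KCND2: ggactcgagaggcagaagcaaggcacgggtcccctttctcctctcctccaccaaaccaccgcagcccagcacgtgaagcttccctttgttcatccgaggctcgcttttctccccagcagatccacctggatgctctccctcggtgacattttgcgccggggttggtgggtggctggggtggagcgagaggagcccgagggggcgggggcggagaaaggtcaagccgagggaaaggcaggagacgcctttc
KCND3: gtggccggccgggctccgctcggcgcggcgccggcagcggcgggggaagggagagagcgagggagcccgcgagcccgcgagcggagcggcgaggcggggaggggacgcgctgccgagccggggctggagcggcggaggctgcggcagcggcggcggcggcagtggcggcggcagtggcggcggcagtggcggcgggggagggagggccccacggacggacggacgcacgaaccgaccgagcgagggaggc
HCN2: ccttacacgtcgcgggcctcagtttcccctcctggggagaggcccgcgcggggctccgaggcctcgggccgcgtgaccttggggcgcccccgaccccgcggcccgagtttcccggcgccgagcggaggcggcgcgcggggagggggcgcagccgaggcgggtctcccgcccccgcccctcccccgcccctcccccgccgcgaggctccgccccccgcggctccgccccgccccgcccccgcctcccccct
The windows of HCN2 (84% G or C, 39 CG pairs) and KCND3 (82.8%, 44 CG pairs) lay above the median of the 7817 listed genes with a window (65.6%, 22 CG pairs), and that of KCND2 (63.6%, 15 CG pairs) lay below it.

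Of the 47 members, 36 had a RefSeq window. TGANTCA occurred in 2 of them (5.56%), against 3.31% of the listed genes with a window and 6.6% of all 27305 windows. The base at N was G in SCN1A and T in CACNB4. TGACGTCA occurred in 1 (2.78%), against 3.24% and 1.77%. The 30-base stretches with a match, in capitals, were chr2:166128241-166128270 on the minus strand for SCN1A, chr2:152099387-152099416 on the minus strand for CACNB4 and chr4:169620511-169620540 on the plus strand for CLCN3.
SCN1A: ttTGAGTCAttaggttcatgatattatata
CACNB4: tccccaagtccTGATTCAtgaaccgtgcca
CLCN3: cgtcaacgtagTGACGTCAcgcgtcgacgc
The matches began 248, 238 and 56 bases before the RefSeq start. For SCN1A and CLCN3 the window lies inside the gene span given in the tables, which place the start elsewhere.

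Differences between OE and KO pointed down in most families, and those of KCND2, KCND3 and HCN2 alone passed the threshold. These 3 genes are part of the counts and medians over all members that follow. At an unadjusted p under 0.05, 14 members were lower in OE and 0 higher, while over all genes 1018 were lower (10.7%) and 1094 higher (11.5%). The libraries of OE and KO did not overlap in 8 members, all lower in OE, against 428 lower (4.51%) and 491 higher (5.17%) among all genes. A negative log2 fold change was found for 31 of 47 members (66%) and for 48.6% of all genes. Median log2 fold changes were -0.22 for potassium, -0.63 for sodium, -0.06 for calcium, -0.24 for HCN and -0.55 for chloride channel genes, and 0.01 for all genes.

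Sodium channel genes had the lowest family median, with 5 of 6 negative and 4 at an unadjusted p under 0.05. SCN9A, the pore subunit Nav1.7, had values of 134, 92, 74 and 152 in the 4 libraries labelled KO and of 66, 57, 48 and 64 in those labelled OE. Its log2 fold change was -0.89 (SE 0.251, limma adjusted p = 0.0782), and the genotypes did not overlap. SCN3B, a beta subunit that modulates the pore, had values of 180, 184, 130 and 190 in KO and of 128, 101, 101 and 120 in OE. The genotypes again did not overlap, with a log2 fold change of -0.59 (adjusted p = 0.0953). For the neuronal pore subunits SCN1A and SCN2A, log2 fold changes were -0.86 (adjusted p = 0.207) and -0.67 (adjusted p = 0.129). SCN3A, a pore subunit prominent in the fetal brain, was at -0.10, and SCN8A (Nav1.6), which is typical of mature axon initial segments, was at 0.62 (adjusted p = 0.293). SCN2A and SCN3A share 9058 bases on opposite strands.

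Among the potassium channels, the 9 voltage-gated pore genes ranged from -1.38 to 0.39 in log2 fold change, with a median of -0.22. Besides KCND2 and KCND3, KCNQ3, a pore subunit of the M-current, had values of 132, 234, 78 and 143 in KO and of 49, 81, 96 and 72 in OE, with a log2 fold change of -0.90 (limma adjusted p = 0.101) and overlapping libraries. The inward rectifier KCNJ2 (Kir2.1), which stabilises the resting potential, was at -0.92 (adjusted p = 0.196), and KCNJ13, an inward rectifier of the choroid plexus, at 0.15. All 3 ion-activated pore genes were negative, from -0.61 for KCNMA1, the large-conductance calcium-activated channel, to -0.10 for KCNT2. The tandem pore-domain leak genes KCNK2 (TREK-1) and KCNK10 (TREK-2) were at 0.26 and -0.38. Of the 3 auxiliary genes, KCNIP1, a cytoplasmic subunit of Kv4 channels, had values of 14, 26, 37 and 116 in KO and of 92, 58, 34 and 56 in OE. Its log2 fold change of 0.65 (adjusted p = 0.346) was the highest of any member, with OE above KO at day 25 (1.88, adjusted p = 0.117) and the libraries overlapping at day 30 (-0.58, adjusted p = 0.677). KCNAB2 and KCNMB4, subunits of Kv1 and of large-conductance channels, were at -0.22 and -0.69. Apart from KCND2 and KCND3, none of these passed.

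Calcium channel genes are given by role. Of the 6 pore genes 5 were negative (median -0.31), led by CACNA1E, the R-type pore, with values of 197, 172, 82 and 152 in KO and of 82, 63, 70 and 78 in OE. The groups met at 82, and the log2 fold change was -0.97 (SE 0.253, limma adjusted p = 0.0634). CACNA1A, the P/Q-type pore, was at -0.84 (adjusted p = 0.201). The T-type pores of thalamic bursting, CACNA1G and CACNA1H, were at -0.06 and 0.06. Of the 7 auxiliary subunit genes 5 were positive (median 0.19), and the largest positive value was 0.35 for CACNB3. By single day the median of the auxiliary genes was 0.13 at day 25 and 0.04 at day 30, and that of the pore genes was -0.36 and -0.28. The difference between pore and auxiliary genes was not tested.

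Chloride channel genes were negative in 4 of 5, and the genotypes did not overlap in CLCN3 and CLCN4, exchangers of endosomes. CLCN3 had values of 259, 348, 262 and 296 in KO and of 222, 212, 186 and 174 in OE, which gave a log2 fold change of -0.55 (SE 0.148, limma adjusted p = 0.0689). CLCN4 had values of 153, 130, 116 and 140 in KO and of 86, 92, 87 and 94 in OE, which gave a log2 fold change of -0.57 (SE 0.168, limma adjusted p = 0.0855). The lysosomal CLCN7 was at -0.09 and CLCN6 at 0.41. The other HCN genes, HCN3 and HCN4, were at 0.23 and -0.24.

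**Figure D2:**
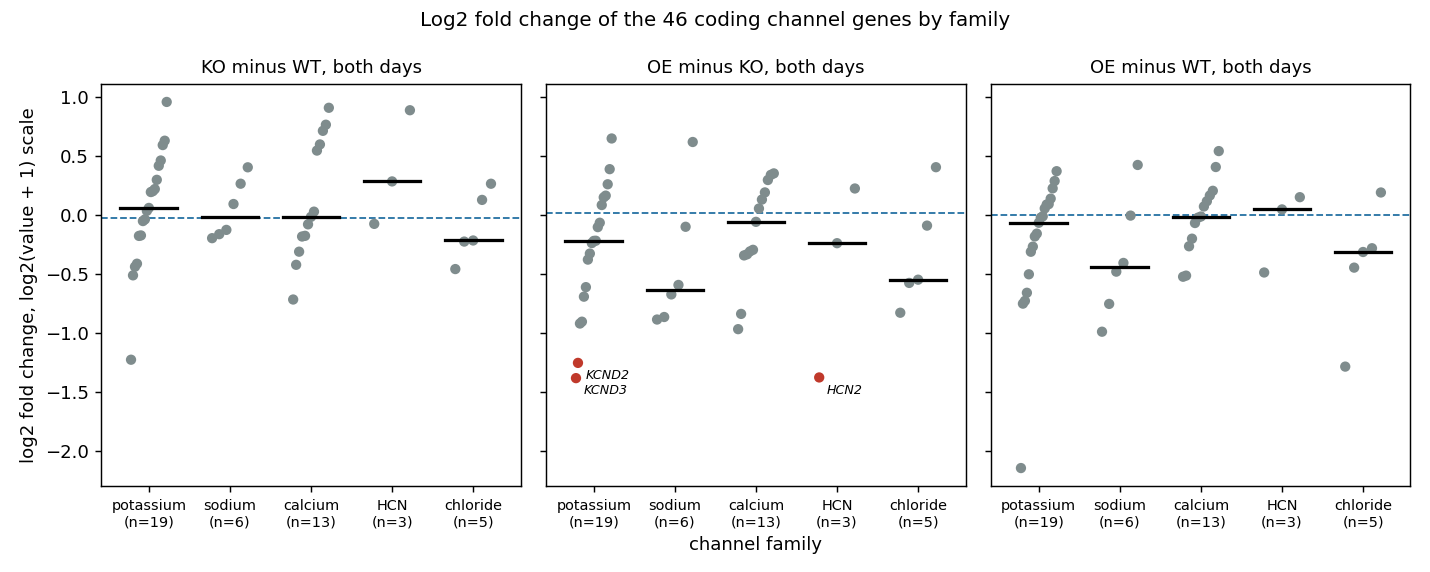
Log2 fold changes on the log2(value + 1) scale of the 46 coding members by family in 3 comparisons over both days. Each point is a gene, red points passed the threshold, black bars are family medians and the dashed line is the median of all 9497 genes. Between OE and KO the sodium and chloride medians lie at -0.63 and -0.55, and red points appear in that panel alone.

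Other gene groups were compared between the same libraries. The summed value of 8 dividing-cell markers ran from 1387 to 1999 in KO and from 2692 to 3013 in OE, without overlap, and from 1781 to 2515 in WT. Of these markers, MKI67, CCNA2 and BUB1 rose in OE against KO. Summed values of 9 progenitor markers ran from 3990 to 6625 in KO and from 6535 to 7162 in OE, and those of 17 neuronal markers from 11607 to 14652 and from 9852 to 14156. Over both days, SYT4 alone of the 17 neuronal markers passed, with a fall, while the median log2 fold change of that list was -0.004. At day 25 alone, SYT4 and GAP43 passed, both lower in OE. SOX2 and PDK1, of the progenitor and stress lists, rose. The choroid plexus list, which shares KCNJ13 with the members, summed to between 1375 and 5431 in KO and between 2028 and 4956 in OE. The thalamus list summed to 4413 and 2550 in KO at day 25 and to 11383 and 2916 at day 30, so the high sum was that of KO day 30 replicate 1 alone. It summed to between 2067 and 2949 in OE and 2682 and 3022 in WT. The stress list summed to between 790 and 2175 in KO and 1547 and 2114 in OE, and the 2 mesenchyme markers to between 261 and 980 in KO and 128 and 318 in OE. The glial marker PDGFRA ran from 48 to 154 in KO and from 40 to 92 in OE. The part of these groups in the channel results was not tested.

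Genes that work with the channels were examined as a separate list of 104 partners and other ion transport genes, of which 67 were listed. Between OE and KO 2 of the 67 fell and 0 rose, against calls in 2.22% of all genes. They were FGF12, an intracellular modulator of sodium channels, and ATP1B1, a subunit of the sodium-potassium pump. FGF12 had values of 140, 281, 80 and 150 in KO and of 22, 32, 66 and 22 in OE, with no overlap and a log2 fold change of -2.17 (SE 0.362, limma adjusted p = 0.0158). ATP1B1 had values of 403, 352, 267 and 528 in KO and of 118, 124, 310 and 198 in OE, with overlap and a log2 fold change of -1.11 (SE 0.227, limma adjusted p = 0.0306). A further 3 had an adjusted p under 0.05 with less than a 2-fold difference and are named after their values were seen. They were DPP6, which assembles with Kv4 pores (log2 fold change -0.93, adjusted p = 0.0447), STIM1, a calcium sensor of the endoplasmic reticulum (-0.92, adjusted p = 0.0289), and CLIC4, an intracellular chloride channel protein (0.87, adjusted p = 0.032). At an unadjusted p under 0.05, 15 of the 67 were lower and 7 higher, against 10.7% and 11.5% of all genes, and the median was -0.22. In all other comparisons, 0 of the 67 passed. For OE against WT over both days, the lowest adjusted p was 0.0281 (limma), with less than a 2-fold difference.

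KO against WT gave no call. Over both days 0 of 47 members passed, against 2 of 9497 genes (0.0211%), and the lowest adjusted p was 0.197 (limma). At an unadjusted p under 0.05, 5 members were higher in KO and 2 lower (14.9% of the members), against 7.01% and 8.16% of all genes (15.2% together). The higher ones were KCNQ3 (log2 fold change 0.96, adjusted p = 0.197), CACNA1A (0.91, 0.273), HCN2 (0.89, 0.218), CACNA1E (0.77, 0.221) and KCND2 (0.59, 0.298), with adjusted p as the second value. The lower ones were KCNJ2 (-1.23, 0.211) and CACNA2D2 (-0.72, 0.197), an auxiliary subunit that aids surface delivery of calcium channels. Family medians were 0.06 for potassium, -0.01 for sodium, -0.01 for calcium, 0.29 for HCN and -0.21 for chloride channel genes, and -0.02 for all genes.

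The libraries of KO and WT did not overlap in 3 members, 2 of them higher and 1 lower in KO, against 2.74% and 3.14% of all genes (5.88% together). HCN2 had values of 37, 30, 22 and 30 in WT, all below the lowest KO value of 38. CLCN3 had values of 252, 220, 239 and 251 in WT, all below the lowest KO value of 259, although its log2 fold change was only 0.27. CACNA2D2 had values of 196, 290, 229 and 178 in WT and of 164, 112, 128 and 134 in KO. HCN2 was thus higher in every library labelled KO, but its highest WT and lowest KO values, 37 and 38, nearly met. Among the 12 listed channels known for thalamic firing and resting potential, the others had log2 fold changes from -0.19 for SCN8A to 0.96 for KCNQ3, and CACNA1G and CACNA1H were at 0.60 (adjusted p = 0.434) and -0.08 (adjusted p = 0.873).

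At day 25 alone, 0 of 47 members passed (1 of 9497 genes, 0.0105%). KCNJ2 had values of 157 and 81 in WT and of 48 and 24 in KO (log2 fold change -1.70, adjusted p = 0.241, limma). KCNIP1 had values of 44 and 81 in WT and of 14 and 26 in KO (-1.59, adjusted p = 0.256). CACNA1E had values of 109 and 62 in WT and of 197 and 172 in KO (1.15, adjusted p = 0.226). KO and WT did not overlap in any of these genes. At day 30, 0 of 47 members and 0 of 9497 genes (0%) passed, with a lowest adjusted p of 0.643 among the members. CACNA1A had values of 30 and 30 in WT and of 51 and 134 in KO (1.43), and CACNA2D1, an auxiliary subunit, 250 and 248 against 192 and 124 (-0.69). Leaving out KO day 30 replicate 1 leaves KO day 30 replicate 2 alone at that day. Replicate 2 stood out for KCND3 and replicate 1 for the thalamus list, and 2 libraries cannot show which of them deviates. Without replicate 1, the log2 fold change at day 30 was 2.12 for CACNA1A and 1.53 for HCN2, while CACNA2D1 stayed lower in KO. Over both days it was 1.14 for HCN2 and 1.18 for KCNQ3. The lone library is assumed in these fits to vary like the other groups.

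OE against WT gave no call either (0 of 47 members over both days, against 15 of 9497 genes or 0.158%), yet it held the largest difference of any member over both days. KCNJ2 (ENSG00000123700, GRCh38 chromosome 17, 70168673 to 70180044) had values of 157 and 81 at day 25 and 118 and 132 at day 30 in WT. In OE it had values of 46 and 32 at day 25 and 14 and 22 at day 30. The genotypes were far apart, at 122 ± 31.7 (SD, n = 4) and 28.5 ± 13.8 (SD, n = 4). The log2 fold change of -2.15 (SE 0.389) missed the threshold at an adjusted p of 0.068 (limma). KCNJ2 passed with the spread taken only from the libraries compared (adjusted p = 0.00706) and with library weights (adjusted p = 0.000996), fits in which 68 and 91 of all genes passed. The first of these fits leaves out the libraries labelled KO, and the second weights them least (0.404 at day 25 and 0.321 at day 30, against 1.16 to 2.03 for the other groups). In KO, KCNJ2 lay at 48 and 24 at day 25 and at 41 and 132 at day 30, spanning the gap.

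CLCN5, an endosomal exchanger, was likewise lower in OE than in WT. In KO it had values of 178 and 70 at day 25 and 75 and 18 at day 30, beyond both ends of the other genotypes. Its values in WT were 132, 74, 98 and 65 and in OE 44, 50, 25 and 30, without overlap, with a log2 fold change of -1.28 (SE 0.431, limma adjusted p = 0.421). It passed in the same pair of alternative fits, with adjusted p of 0.035 and 0.0189. SCN3B had values of 167, 181, 186 and 228 in WT against at most 128 in OE, with a log2 fold change of -0.75 (SE 0.181, limma adjusted p = 0.181). SCN1A, whose WT values were 136, 48, 47 and 57 and whose OE values were 32, 26, 32 and 40, was at -0.99 (adjusted p = 0.498).

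In the other direction, the libraries of OE lay above those of WT for KCNH7, an Erg-type potassium pore, and for the T-type pore CACNA1G. CACNA1G had values of 67, 45, 44 and 40 in WT and of 68, 74, 69 and 71 in OE (log2 fold change 0.54, adjusted p = 0.791, limma). In all, 7 members were lower and 2 higher without overlap, against 4.34% and 4.13% of all genes. At an unadjusted p under 0.05, 8 were lower and 0 higher, against 4.69% and 3.53%. The sodium and chloride medians were -0.44 and -0.31, while those of potassium (-0.06), calcium (-0.01) and HCN genes (0.05) were close to the 0.00126 of all genes.

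HCN2, KCND2 and KCND3 were thus measured in the order OE, WT, KO by group mean. KCND2 in OE (40 to 45) did not overlap WT (60 to 78), with a log2 fold change of -0.66 (limma adjusted p = 0.499). For KCND3 and HCN2, OE and WT overlapped (-0.75, adjusted p = 0.574, and -0.49, adjusted p = 0.754). KCNJ2 had the order OE, KO, WT, and in SCN3B the means of KO (171 ± 27.6, SD, n = 4) and WT (190.5 ± 26.3, SD, n = 4) differed by less than their spread.

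By single day, no member passed for OE against KO or OE against WT. For OE against KO, 26 of 9497 genes (0.274%) passed at day 25 and 8 (0.0842%) at day 30. For OE against WT, the numbers were 0 (0%) and 3 (0.0316%). KCND2 was at -0.99 and -1.52 for OE against KO at the 2 days, KCND3 at -1.31 and -1.45 and HCN2 at -1.33 and -1.42, so that each was lower in OE at both. In 20 members the OE libraries lay wholly below KO at day 25 and in 5 wholly above, against 22.4% and 24.5% of all genes. At day 30 the numbers were 18 and 2, against 18.5% and 18.7%. For OE against WT, 10 members lay wholly below and 8 above at day 25 (19.6% and 19.8% of all genes), and 19 below and 4 above at day 30 (21.8% and 21%). For KO against WT, 4 lay wholly below and 15 above at day 25 (21.3% and 19.3%), and 7 below and 10 above at day 30 (17.4% and 16.5%). At day 30 the members below WT or KO in OE thus outnumbered those above, while all genes were divided about evenly. Without KO day 30 replicate 1, 9 members passed for OE against KO at day 30, with 1441 of all genes (15.2%). With library weights KCNJ2 passed for OE against WT at day 30 (adjusted p = 0.00382), as did 52 genes in all.

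No member passed in the test of whether the KO effect changed between the days, and the members at an unadjusted p under 0.05 are given as values. HCN3, a pore subunit of the HCN family, had values of 49 and 58 in WT and of 80 and 82 in KO at day 25, and of 56 and 48 in WT and of 36 and 26 in KO at day 30. CACNA2D3, an auxiliary subunit of calcium channels, had values of 11 and 18 in WT and of 33 and 68 in KO at day 25, and of 45 and 26 in WT and of 23 and 22 in KO at day 30. The CACNA2D3 value of 11 in WT is the lowest of any gene in any library. For both genes KO lay above WT at day 25 and below it at day 30. The change of the KO effect from day 25 to day 30 was -1.34 (SE 0.488) for HCN3 and -2.27 (SE 0.758) for CACNA2D3 on the log2 scale, and both had an adjusted p of 0.802 (limma). KCNIP1 moved the other way by 2.17 (SE 0.774, limma adjusted p = 0.802). In this test 0 of 47 members and 0 of 9497 genes (0%) passed, and 4 members had an unadjusted p under 0.05, the fourth being SCN3A (-0.80), against 5.63% of all genes.

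**Figure D3:**
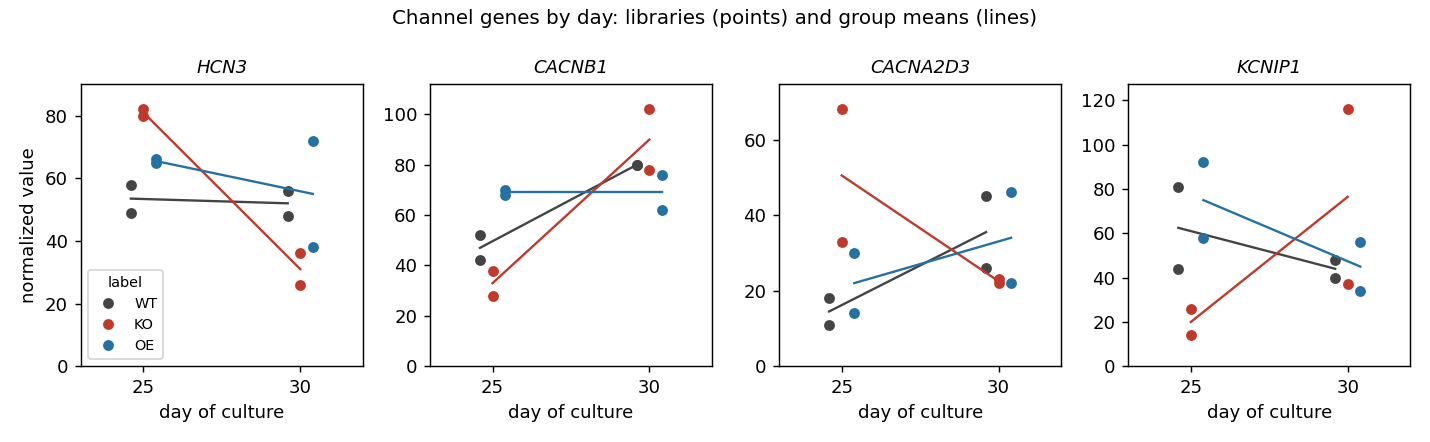
Normalised values of 4 members against day of culture, with points for libraries (shifted sideways by genotype) and lines joining the means of 2 libraries. HCN3 and CACNA2D3 in KO lie above WT at day 25 and below it at day 30, and KCNIP1 in KO runs from 14 and 26 to 37 and 116.

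Between day 25 and day 30, averaged over the genotypes, 0 of 47 members and 0 of 9497 genes (0%) passed. CACNB1, a beta subunit of calcium channels, had the lowest adjusted p, at 0.22 (limma), with a log2 fold change of 0.73 (SE 0.17). At day 25 it spanned 28 to 70 (median 47), and at day 30 it spanned 62 to 102 (median 79). KCNQ1OT1, a long noncoding RNA read from the KCNQ1 imprinted region, ran from 922 to 3452 at day 25 (median 1307) and from 449 to 875 at day 30 (median 651), without overlap. Its log2 fold change was -1.14 (SE 0.286, limma adjusted p = 0.227), and it passed only without WT day 25 replicate 2 (-1.46, adjusted p = 0.0232). It was the only member of the 47 whose days did not overlap, against 0.474% of all genes lower and 0.295% higher at day 30 (0.769% together).

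The coding members leaned towards lower values at day 30 without passing. CLCN5 was at -0.88 (limma adjusted p = 0.399), CLCN7 at -0.49 (adjusted p = 0.328) and HCN3 at -0.58 (adjusted p = 0.342). At an unadjusted p under 0.05, 6 coding members were lower and 1 higher, or 15.2% of the 46, against 5.54% and 5.76% of all genes (11.3% together). All 3 HCN and all 5 chloride genes were negative, with medians of -0.58 and -0.17. The medians of potassium, sodium and calcium channel genes were -0.15, -0.05 and -0.14, and that of all genes was 0.01.

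**Figure D4:**
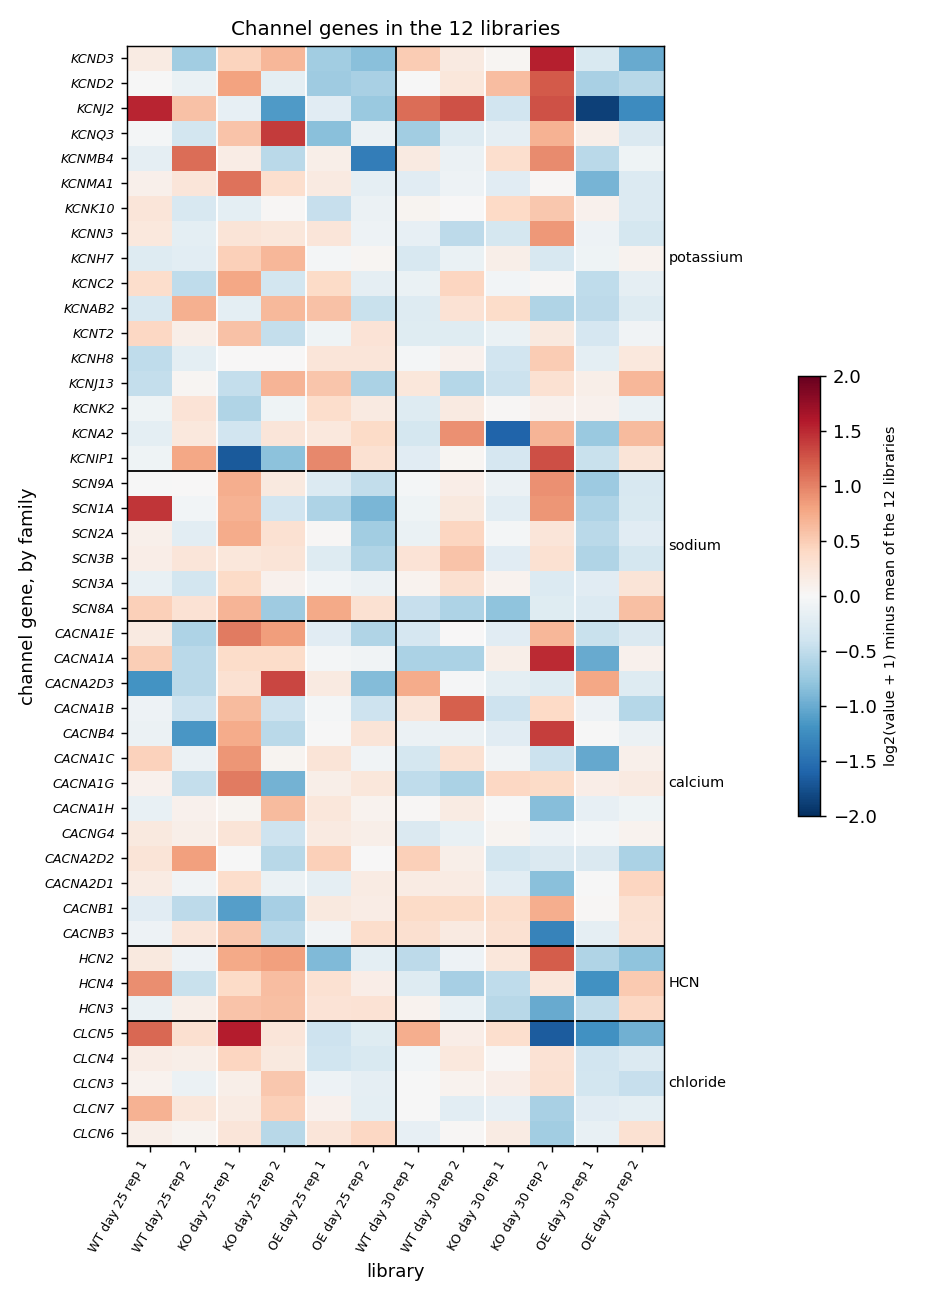
Log2(value + 1) of 44 coding members (rows, by family, in order of the OE against KO change) in the 12 libraries (columns), minus the mean of the gene over the libraries. Red is above and blue below that mean, the colour scale runs from -2 to 2, and the 2 KO columns of a day differ more from each other than do the columns of the other groups.

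The map of coding members shows how far the KO libraries of a day disagree. KO day 30 replicate 2 held 264 for KCND3, 134 for CACNA1A and 75 for CACNB4, against 92, 51 and 24 in replicate 1. It held 18 for CLCN5 and 60 for CACNB3, against 75 and 190. KCNA2, the potassium pore Kv1.2 of axons, had 15 and 76 in these libraries. It differed in the other groups of day 30 too, with 37 and 90 in WT and 28 and 74 in OE. In WT at day 30, KCNA2 was the only member that differed at least 2-fold between its libraries, against 11 members in KO.

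Read assignment limits a few members. On the opposite strand, 9 of the 47 overlap another listed gene, and whether strand was used in counting is not given in the sources used here. KCNJ13 lies wholly within GIGYF2, and KCNAB2, HCN3 and KCNH7 overlap NPHP4, CLK2 and GCA. Of the called genes only KCND3 is among them.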

How the data were processed

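RNA-seq was performed on ThOs with a total RNA library kit that marks strand, according to the study's methods. The authors deposited 1 table per library with an identifier, a position, a symbol and a value for each gene. The deposited values are whole numbers on a normalised score of expression, and how the authors computed it is not given in the sources used here. The submitters' processing notes name bcl2fastq, RSEM, Bowtie2 and hg19 without saying for which assay, whereas the positions in the tables overlap RefSeq GRCh38.p14 for all 47 members. The libraries share their minimum, median and maximum, which quantile normalisation would leave, so a shift common to all genes cannot be seen. Depth is unknown, and no counting interval was given. No table was a copy of another.

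Because the values are not counts, log2(value + 1) was analysed with limma 3.58.1 in R 4.3.3. A filter on low values (1 or more in 2 or more libraries) removed 0 genes. The model gave each of the 6 groups its own mean over the 12 libraries, and each gene a single variance shared by all groups. The variances were moderated and follow an intensity trend (6 residual and 5.29 prior degrees of freedom). Benjamini-Hochberg adjustment was over 9497 genes. Calls required an adjusted p under 0.05 and a 2-fold change, or, for the change of the KO effect from day 25 to day 30, the adjusted p alone. All adjusted p-values are two-sided and from limma. Fold changes on this scale understate those of low genes. JUN was compared by exact permutation. The steps were tested on simulated data. Sequences came from RefSeq (GRCh38.p14) and were searched for motifs in Python 3.11.15.

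The members, the marker and partner lists and the alternatives were chosen with earlier results of these data known. Part of the genes named followed a rule: called members, for each comparison up to 4 members per direction with the largest change and no overlap between the groups, the members highest in WT in each family, and channels known for thalamic firing and rest. Other members were named outside this rule with their values known, among them KCNA2, KCNMA1, CACNB3 and CLCN4. The same holds for CACNA1A and CACNA1E in KO against WT over both days. The values of 2 members entered every count and fit but are not reported here. Alternatives were pseudocounts of 0.1 and 5, a minimum mean value of 50, no filter, median centring, quantile normalisation, no intensity trend, library weights, only the libraries compared, no minimum fold, the replicate number as a block and each library left out. Having no filter and median centring could not change the main fit, since the filter removed 0 genes and all libraries had the same median. Quantile normalisation had little to change, since the libraries also shared their minimum and maximum. The stability of a result under these settings is therefore no evidence for it. Leaving out the second KO library of both days was added after the data were seen.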

Additional observations from a re-analysis of the deposited data

Results flagged for a closer look

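For 3 members, the groups differed in opposite directions at the 2 days, with every library of a group on one side of the other group at each day. HCN3 was higher in KO than in WT at day 25 (log2 fold change 0.59) and lower at day 30 (-0.74). CACNA2D3 had log2 fold changes of 1.68 and -0.58 for KO against WT. The first of these rests on WT values of 11 and 18, near the lowest value of any gene, 11. The change of the KO effect between days had an adjusted p of 0.802 for both genes (limma), so it did not pass. For OE against KO, HCN3 was at -0.30 at day 25 and 0.76 at day 30. For CACNB1, OE lay above KO at day 25 (1.06) and below it at day 30 (-0.37), and OE against WT gave 0.55 and -0.22. The differences between days that involve OE were not tested. Groups of 2 libraries often fail to overlap: at a single day, 16.5% to 24.5% of all genes did so in each direction. How many of all genes had opposite directions at the 2 days was not counted, so the 3 members cannot be called unusual.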

How the results depend on the processing

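Most channel results kept their direction and side of the threshold, and the counts of calls depended on single KO and OE libraries. The number of members called for OE against KO over both days, 3, ranged from 0 to 8 with a library left out and was 0 with only the libraries compared and 0 with library weights, while the whole-table count was 11 and 41 in these fits, against 211. For OE against WT over both days these 2 settings gave 2 and 2 calls (CLCN5 and KCNJ2), with 68 and 91 genes over the whole table against 15, and library weights gave 1 at day 30, with 52 genes against 3. With a library left out, counts ranged from 0 to 4 for KO against WT over both days, from 0 to 5 at day 30, from 0 to 9 for OE against KO at day 30 and from 0 to 1 for day 30 against day 25. The cause was not tested.

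With the replicate block, 2 members passed for OE against KO over both days (HCN2 and KCND2, not KCND3 with an adjusted p of 0.0654), and no other count of members changed. The replicate numbers did not pair the samples: deviations of same-numbered libraries correlated at -0.21 to 0.26 over 15 group pairs, with 1 pair over 0.1. KCND3 also missed the threshold without the intensity trend (adjusted p = 0.0675).

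Without the second KO library of both days, 1 member passed for KO against WT (CACNA1G) and 2 for OE against KO (CLCN5 and KCND2), while 0.569% and 2.3% of all genes did. The calcium and chloride medians for KO against WT became 0.26 and 0.12. Log2 fold changes near 0 changed sign: CACNG4 (0.20), HCN3 (0.03) and SCN8A (0.0095) for KO against WT, and CACNA1H (-0.01), CACNG4 (-0.077) and HCN4 (0.0063) for OE against KO. The potassium median for day 30 against day 25 was 0.059 with a mean value of at least 50.

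Over libraries left out, the calcium median for KO against WT ranged from -0.11 to 0.26 and the chloride median ranged from -0.34 to 0.12 for KO against WT and from -0.55 to -0.33 for OE against KO, the leaving out of both second KO libraries included. Ranges that crossed 0 for KO against WT were -0.29 to 0.13 for CACNA1H, -0.18 to 0.20 for CACNG4, -0.19 to 0.040 for HCN3, -0.057 to 0.63 for HCN4, -0.50 to 0.25 for SCN1A and -0.54 to 0.15 for SCN8A. For OE against KO they were -0.56 to 0.44 for CACNA1G, -0.15 to 0.27 for CACNA1H, -0.077 to 0.30 for CACNG4, -0.67 to 0.19 for HCN4 and -0.26 to 0.025 for SCN3A. A fit with only the libraries compared was not run for the day comparison, which uses all 12.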
